A study of Mus musculus with 50 samples.

Results

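The clustered protocadherin genes encode cadherin-type adhesion proteins of neurons. They were selected here as every gene whose symbol places it in the alpha, beta or gamma set and which lies in the cluster on chromosome 18 of GRCm38, between 36.9 and 37.9 Mb. The rule found 58 genes among 49997 in the RefSeq annotation of that assembly, 14 in the alpha set, 22 in the beta set and 22 in the gamma set. The 1 Mb window held 35 of the 144465 merged chromatin accessibility peaks of the series, and all 35 could be tested at both time points.

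Each alpha or gamma gene has its own first exon, behind its own promoter, and the chosen first exon is spliced to constant exons that the whole set shares. Each beta gene is a gene of 1 exon. A single neuron uses only a few of the alternate first exons, picked largely at random, whereas the C-type first exons at the end of the alpha and gamma sets (Pcdhac1, Pcdhac2, Pcdhgc3, Pcdhgc4 and Pcdhgc5) are used more uniformly across neurons. CTCF and cohesin bring a chosen promoter to distal enhancers, and the resulting set of isoforms on the surface of a neuron helps its branches to tell self from non-self.

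Chromatin accessibility was measured by ATAC-seq, which counts fragments cut by the Tn5 transposase in open chromatin, in nuclei positive for NeuN, a neuronal marker, that had been sorted from ventral hippocampi of C57BL/6JRj males. Pregnant females of 1 breeding population had been sent to 5 rearing facilities (RF1 to RF5), where the offspring were born and reared. At TP2, the second time point, test-naive mice aged 14 weeks were killed in the test laboratory that all facilities shared, and at TP1, the first, mice aged 8 weeks were killed in their RF. Each of the 10 groups of RF and time point held 5 libraries, 50 in all, each from a different mouse, and mice of the 2 time points were littermates by cage. NeuN selects neuronal nuclei of every kind, so the values are averages over granule, pyramidal and inhibitory neurons, and a change in the mix of neurons cannot be told apart from a change within each.

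Library totals ran between 5111223 and 36401717 counts at TP2 and between 33663505 and 77396321 counts at TP1, and the cluster took 0.0324% to 0.0400% of them, or 1967 to 14414 counts per library at TP2 and 11411 to 28292 at TP1. TP2 was therefore the shallower time point, and time point and sequencing run cannot be told apart, so levels were compared between RFs within a time point. At TP2, 3 libraries stood apart from their labels: RF1 replicate 3, the shallowest library, lay within sampling noise of 4 RF2 libraries, RF1 replicate 5 of 1 RF2 and 1 RF5 library, and RF2 replicate 5 of 1 RF5 library. No pair of libraries from different RFs did so at TP1. Results at TP2 are therefore given with all 25 libraries and again without these 3. The 3 were picked from these same counts for their likeness to another RF. Leaving them out favours differences between RFs, so FDRs without them may be too small. Within groups, 20 of 100 pairs also lay within sampling noise, so standard errors that treat each library as a separate sample may be too small. Promoter peaks of 7 of 7 neuron marker genes were found, with a median of 11.7 CPM per kilobase (CPM are counts per 1000000 counts of the library, after scaling), against 3.12 for the 11 of 14 glial and endothelial markers that had a promoter peak. Over all 12086 protein-coding genes with a promoter peak the median was 9.52.

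The cluster was sparsely covered by peaks, and coverage was uneven among its sets. Its 35 peaks compared with 88 in the 1 Mb before it, 103 in the 1 Mb after it, and a median of 56 per Mb on chromosome 18. The alpha set held 11 peaks (named A1 to A11 in genome order), the gamma set 18 (G1 to G18) and the beta set 0. A further peak, AB1, lay between the alpha and beta sets at chr18:37216768-37218743. BG1 lay between the beta and gamma sets and overlapped Taf7, which encodes a subunit of the general transcription factor TFIID. D1 to D4 followed the gamma set and lay inside Diaph1, a formin gene.

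All 22 Pcdhb genes lay in a stretch of 424667 bp with no merged peak, between 37218744 and 37643410. Peaks had also been called in each library on its own, and those lists gave a little more. At TP2, 6 of 25 libraries had a single call inside the beta set, and at TP1 0 of 25 did. The calls touched Pcdhb7 in RF5 replicate 1, Pcdhb9 in RF1 replicate 5, Pcdhb12 in RF1 replicate 1, and Pcdhb20 in RF5 replicate 5 and RF2 replicate 2, and 1 lay before Pcdhb17 in RF4 replicate 2. Their enrichment over the local background was 2.16 to 2.65 and their −log10 q-value 1.06 to 2.02, near the calling limit. No Pcdhb gene therefore has a value in the comparisons of RFs. The alignments kept were unique ones, and the part that the similarity between protocadherin exons has in these gaps was not tested.

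Of the 58 starts, 15 carried a merged peak, namely all 5 C-type starts and 10 alternate starts (Pcdha5, Pcdha12, Pcdhga3, Pcdhga7, Pcdhgb6, Pcdhga10, Pcdhgb7, Pcdhga11, Pcdhgb8 and Pcdhga12). Pcdhgb8 is annotated as a transcribed pseudogene. Counting calls within 2 kb of a start in single libraries, Pcdhac2, Pcdhgc3 and Pcdhgc5 were called in 50 of 50 libraries, and Pcdhac1 and Pcdhgc4 in 49. Among alternate starts, those nearest the constant exons of the gamma set were called most often, Pcdhga12 in 48 libraries, Pcdhgb8 in 45 and Pcdhga11 in 43. Pcdhgb6 was called in 30, Pcdha12 in 27, Pcdhgb7 in 14, Pcdha5 in 13 and Pcdhga3 in 11. Pcdha1, Pcdha3, Pcdha8 and Pcdhgb4 were called in 0 of 50.

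**Figure D1:**
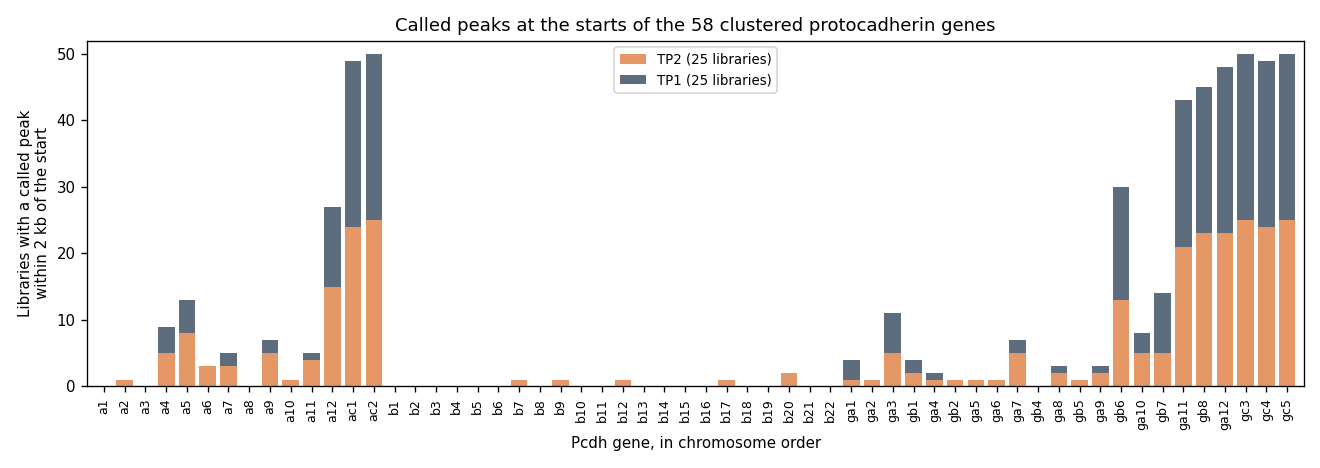
Number of the 50 libraries with a peak call within 2 kb of the start of each of the 58 genes, in genome order, split into TP2 and TP1. The 5 C-type starts reach 49 or 50 libraries, and the 22 Pcdhb starts stay at 0 to 2.

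Levels also differed between the C-type and the alternate starts. Per kilobase, the C-type peaks ranked from A3 at Pcdhac1 (4.10 CPM per kb), through A4 at Pcdhac2 (6.73), G13 at Pcdhgc4 (7.24) and G12 at Pcdhgc3 (8.38), to G14 at Pcdhgc5 (14.77), where the median over all peaks of the series was 2.71. The 10 alternate starts ran between 1.52 and 2.73 CPM per kb, so that none reached any of the C-type starts. The 3 highest levels in the window lay outside the protocadherin genes, at D3 (24.06 CPM per kb), D2 (19.25) and AB1 (17.57), followed by G14 and then D4 (12.55). D3 ranked at the 98.9th percentile of all peaks and AB1 at the 97.8th. Enhancers of the alpha and gamma sets are known to lie downstream of them. Whether AB1 and D1 to D4 are those elements was not tested.

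Dependence on the RF was tested with edgeR quasi-likelihood F-tests over all peaks, within each time point and with the replicate number as a block. A peak was called at a Benjamini-Hochberg false discovery rate (FDR) below 0.01. At TP2, 10 of 35 cluster peaks depended on RF, or 28.6%, where the background over all peaks was 30.8%, and at TP1, 25 of 35 did, or 71.4%, against a background of 59.1%. In the 1 Mb on either side, 27.7% of peaks were called at TP2 and 49.2% at TP1. Of the cluster peaks called, 9 were called at both time points (A3, A4, AB1, G12, G15, G17, G18, D1 and D4), A7 at TP2 alone and 16 at TP1 alone. Without the 3 libraries that stood apart, 16 cluster peaks were called at TP2, where the background was 49.5%, among them A1, G1, G13, G14 and D3. Other settings lowered the count of 10 at TP2, to 2 without replicate 1 or 2, 6 without replicate 3 and 4 without replicate 4, to 5 with a trended (loess) scaling, to 2 with libraries within sampling noise summed (chosen after seeing the data) and to 1 after subtracting 1 Mb regional means.

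The calls are also given by kind of element, where the background over all peaks was 30.8% at TP2 and 59.1% at TP1. All 5 C-type starts depended on RF at TP1, and 3 of 5 at TP2. Alternate starts gave 0 of 10 at TP2 and 8 of 10 at TP1. All 6 peaks between and after the gene sets were called at TP1 and 3 of 6 at TP2. Peaks inside the gene bodies that hold no start gave 1 of 7 at TP2 and 2 of 7 at TP1 in the alpha set, and 3 of 7 and 4 of 7 in the gamma set. No test compared the kinds. Alternate starts have few counts, with a median of 29.5 counts per library at G1 and 36 at A1, against 1158.5 at AB1.

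**Figure D2:**
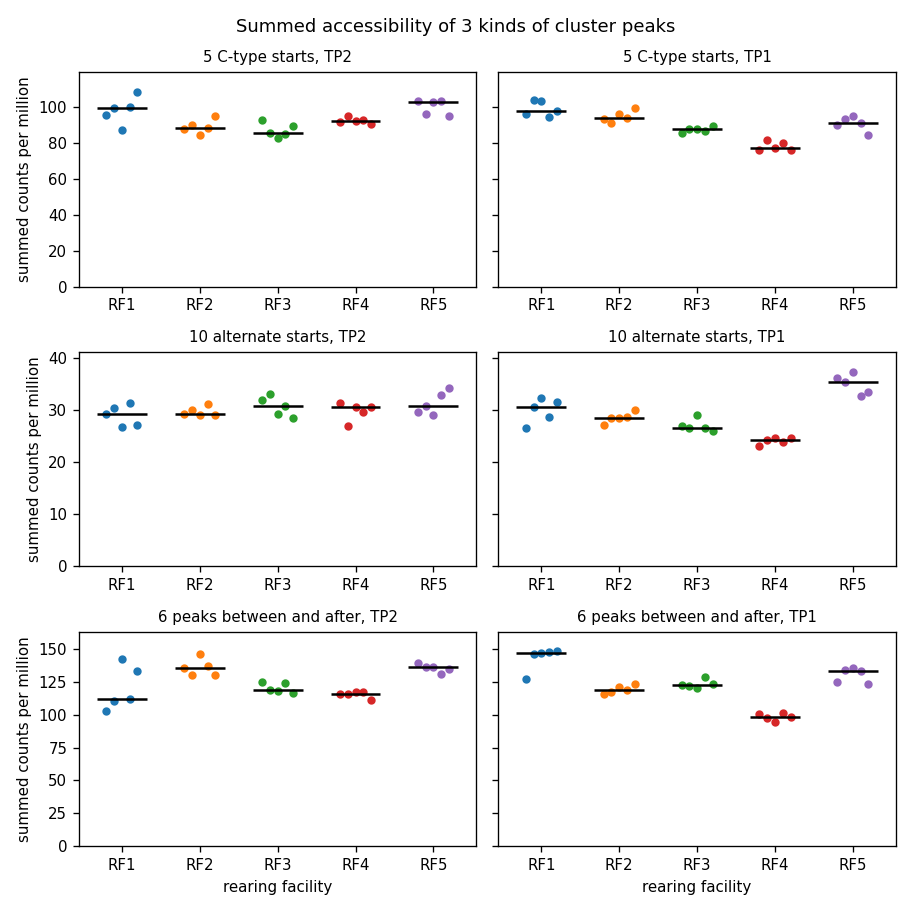
Summed CPM of the C-type starts, alternate starts and peaks between and after the sets, 1 point per library, by RF, with TP2 left of TP1 and a bar at each median. At TP1 the RF4 libraries lie lowest for all 3 kinds, and the RF5 libraries lie highest for the alternate starts.

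AB1, after the end of the alpha set, separated the RFs with the smallest FDR of the cluster (2.09e-05 at TP2 and 1.60e-14 at TP1). At TP1 its level in replicates 1 to 5 was 39.8, 41.7, 41.3, 42.7 and 44.8 CPM in RF1, against 26, 24.8, 23.2, 27.6 and 24.8 CPM in RF4. RF2 had 30.8, 29.7, 34.0, 31.5 and 32.5 CPM, RF3 had 30.3, 30, 30.4, 32.3 and 30.9 CPM, and RF5 had 32.4, 33.3, 34.8, 32.2 and 30.8 CPM. Every RF1 library lay above every library of the other RFs and every RF4 library below them, while RF2, RF3 and RF5 overlapped. The log2 fold change of RF1 over RF4 at TP1 was 0.74 ± 0.058 (SE, n = 5 each, edgeR FDR = 4.00e-16). That passed the study's rule for a differentially accessible region (DAR), an FDR below 0.01 with an absolute log2 fold change of 0.5 or more. With a trended (loess) scaling the difference was 0.43 at an FDR of 3.21e-09, below the fold needed.

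At TP2 the order at AB1 was another one. RF1 had 27.2, 28.0, 44.5, 31.4 and 41.2 CPM in replicates 1 to 5, RF5 had 43.6, 41.6, 40.3, 38.9 and 42.4 CPM, and RF2 had 40.4, 39.4, 43.4, 41.3 and 41.0 CPM. RF3 had 37.6, 37.4, 35.8, 39.0 and 34.4 CPM, and RF4 had 32.1, 31.0, 31.7, 32.9 and 29.8 CPM. The 2 high values in RF1 came from the libraries that resembled RF2 or RF5 genome-wide, and its other 3 lay within the RF4 range or below it. RF1 against the other 4 RFs' mean at AB1 was −0.16 ± 0.062 (FDR = 0.055) with all libraries and −0.39 ± 0.049 (FDR = 1.38e-12) without the 3. The 3 were left out for resembling other RFs, which favours such a difference. At TP1 the same contrast was 0.49 ± 0.044 (FDR = 5.21e-14). RF effects at AB1 differed between the time points by the interaction of RF and time point (FDR = 5.76e-10, and 7.75e-19 without the 3 libraries).

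D3, the peak with the most counts per kilobase in the window, showed the TP1 pattern without that of TP2. At TP1 it had 23.6, 27.8, 27.1, 26.6 and 25.5 CPM in RF1, against 16, 15.1, 14.0, 13.7 and 15.1 CPM in RF4. RF2 ranged from 19.4 to 21.8 CPM, RF3 from 20 to 25.1 CPM and RF5 from 18.4 to 22 CPM. RF4 lay below all others with no overlap, and RF1 overlapped only with RF3 replicate 4. The log2 fold change of RF1 over RF4 was 0.82 ± 0.066 (FDR = 1.07e-15), and RF4 fell by 0.57 ± 0.055 against the mean of the other 4 (FDR = 1.80e-12). At TP2, D3 had 18.7, 20.1, 18.4, 18.2 and 22.3 CPM in RF1, against 18.7, 18.9, 20.9, 18.3 and 18.4 CPM in RF4. There the groups overlapped, and the log2 fold change of RF1 over RF4 was 0.05 ± 0.071 (FDR = 0.77). The interaction at D3 had an FDR of 1.32e-09.

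D1, D2 and D4, next to D3, moved less. Their largest TP1 contrasts were RF1 over RF4 at D1 (0.47 ± 0.057), RF3 over RF4 at D2 (0.39 ± 0.061) and RF4 over RF5 at D4 (−0.50 ± 0.074, FDR = 3.20e-07). D4 lay at 8.96, 11.7, 10.7, 11.9 and 11.2 CPM in RF4 at TP1, against 14.0, 16.8, 15.6, 16.5 and 14.1 CPM in RF5, with no overlap. It was a DAR only by a small margin, and its log2 fold change ran below 0.5 in size without replicate 1, 2 or 3. At TP2 the largest contrast at D4 was RF1 over RF2, at −0.42 ± 0.094 (FDR = 3.02e-03) with all libraries and −0.61 ± 0.099 (FDR = 1.30e-07) without the 3 that stood apart.

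**Figure D3:**
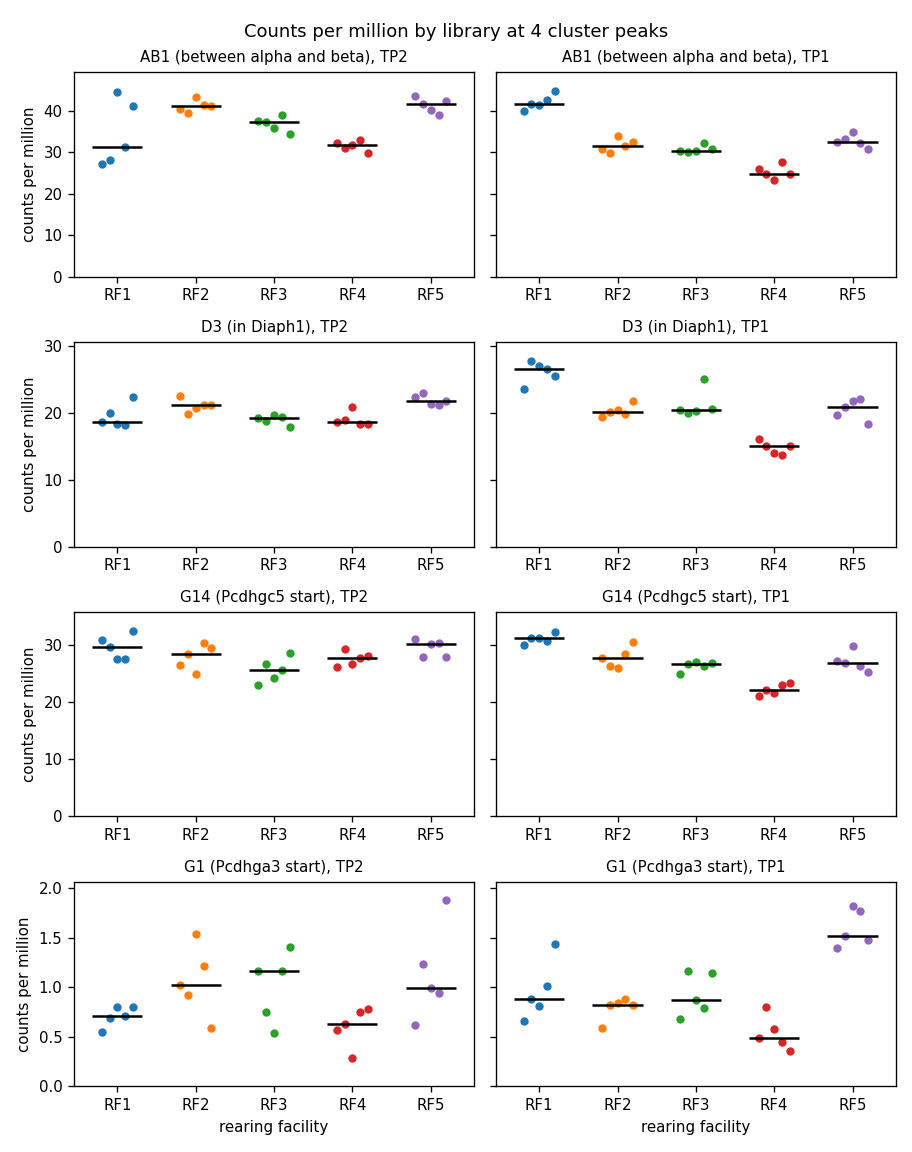
CPM of 4 cluster peaks in each library, by RF, with TP2 left of TP1 and a bar at each median. At AB1 and D3 the RF1 libraries at TP1 stand above those of RF4 with no overlap, and at AB1 at TP2 2 of the 5 RF1 libraries stand above the rest of their group.

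C-type promoters rose and fell within a narrow range. G14 at Pcdhgc5, the highest of them, had 30, 31.2, 31.2, 30.6 and 32.2 CPM in RF1 at TP1, against 21.1, 22.1, 21.6, 22.9 and 23.4 CPM in RF4, with no overlap. The log2 fold change was 0.48 ± 0.059 (FDR = 7.12e-10), past the FDR limit and just under the fold needed for a DAR. At TP2, G14 overlapped among all RFs, with 27.6 to 32.5 CPM in RF1 and 23 to 28.5 CPM in RF3, the pair that differed most (0.22 ± 0.066, FDR = 7.83e-03). G12 at Pcdhgc3 had 17.7, 18.2, 15.4, 18.2 and 18.2 CPM in RF1 at TP2, against 13.7, 12.9, 13.5, 13.3 and 13.9 CPM in RF3, with no overlap (0.40 ± 0.077, FDR = 3.72e-05). Its low RF1 library was replicate 3, one of those that stood apart. At TP1 the largest contrast at G12 was again RF1, here over RF4, at 0.40 ± 0.065 (FDR = 8.45e-07).

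The other C-type starts moved less. G13 at Pcdhgc4 and A4 at Pcdhac2 differed most between RF1 and RF4 at TP1, by 0.29 ± 0.060 and 0.29 ± 0.063. At TP2 the largest contrasts were RF3 over RF5 at G13 (−0.22 ± 0.072, FDR = 0.049) and RF2 over RF5 at A4 (−0.31 ± 0.076, FDR = 9.11e-03). A3 at Pcdhac1 lay between 9.05 and 13.7 CPM in all 25 libraries of TP2 and between 9.20 and 12.6 CPM in those of TP1. Its largest contrasts were −0.32 ± 0.091 for RF2 over RF5 at TP2 (FDR = 0.026) and −0.25 ± 0.071 for RF3 over RF5 at TP1 (FDR = 8.79e-03). None of the 5 C-type starts was a DAR between any pair of RFs at either time point.

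Alternate promoters gave most of the DARs that involved RF5 at TP1, A10 and D4 being the others. Set against the other 4 RFs' mean at TP1, 5 cluster peaks were higher in RF5 (14.3%, where 2.28% of all peaks were), all of them alternate starts: A1 at Pcdha5 (0.66 ± 0.155), A2 at Pcdha12 (0.62 ± 0.106), G1 at Pcdhga3 (1.04 ± 0.146), G3 at Pcdhgb6 (0.52 ± 0.106) and G5 at Pcdhgb7 (0.67 ± 0.157). For the 4 other than G1 the edgeR FDRs ran from 6.82e-06 to 7.09e-04. The share of 14.3% includes G1, whose listing needed RF5 at TP1, and A1, listed only through RF5 at TP2, as described below. It is therefore a description beside the 2.28% and not a test. The number called in RF5 was 2 without replicate 2 (A2 and G1) and 2 after subtracting 1 Mb regional means (G1 and G5). The median over the 10 alternate starts was 0.50 with all libraries, 0.46 without replicate 2 and 0.35 after that subtraction. These 10 include A1, G1, G2 and G4, each listed only through an RF5 group. With all libraries the median was 0.25 over the 4 alternate starts listed in 7 or more groups. At TP2 no alternate start was called in RF5, and the same contrast there was 0.53 ± 0.175 at A1, 0.12 ± 0.138 at A2, 0.50 ± 0.206 at G1, 0.24 ± 0.135 at G3 and 0.11 ± 0.212 at G5.

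How these peaks came to be listed bears on those values. A peak entered the merged list when 3 or more of the 5 libraries in a group had it called, and 4 of the alternate starts met this in 1 group only, which was an RF5 group each time. G1 was listed through RF5 at TP1, where 4 libraries had it, and A1, G2 and G4 through RF5 at TP2, with 3 libraries each. G1 at TP1, and A1, G2 and G4 at TP2, thus had to be high in RF5 to be in the table. Their contrasts and calls there, wherever given, are descriptions and not tests. The 4 alternate starts listed in 7 or more groups, which did not need RF5, were also higher in RF5 at TP1. Their log2 differences were 0.52 at G3, 0.28 ± 0.052 at G8 (Pcdhga12, FDR = 3.21e-05), 0.23 ± 0.075 at G7 (Pcdhgb8, FDR = 0.016) and 0.17 ± 0.081 at G6 (Pcdhga11, FDR = 0.087). Of these, G3 alone was a DAR and G3 and G8 passed the FDR limit.

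Of the 5 that rose, G3 at Pcdhgb6 was called in the most libraries. It had 3.00, 2.79, 3.24, 3.42 and 2.18 CPM in RF5 at TP1, against 1.85, 1.46, 1.72, 1.58 and 1.44 CPM in RF4, with no overlap (RF4 over RF5 −0.86 ± 0.142, FDR = 4.03e-06). RF1 ranged from 2.26 to 2.7 CPM, RF2 from 1.67 to 2.72 CPM and RF3 from 1.75 to 2.86 CPM. RF5 replicates 2 and 5 thus fell within the range of the others. At TP2, G3 had 1.94 to 3.08 CPM in RF5, against 1.34 to 2.37 CPM in RF4, and these overlapped. G1 at Pcdhga3 had 1.40, 1.52, 1.81, 1.77 and 1.48 CPM in RF5 at TP1, against 0.491, 0.802, 0.573, 0.443 and 0.355 CPM in RF4, the lowest RF. RF1 replicate 5, at 1.44 CPM, was the only library of another RF that reached the RF5 range. RF4 over RF5 at G1 was −1.58 ± 0.207, the largest contrast in the cluster at TP1, and −0.90 ± 0.283 at TP2 (FDR = 0.014).

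G8 at Pcdhga12, the alternate start with the most counts, lay at 13, 13.9, 14.4, 12.2 and 13.6 CPM in RF5 at TP1, against 8.89, 9.68, 10.6, 9.28 and 10.3 CPM in RF4, with no overlap (RF4 over RF5 −0.46 ± 0.068, FDR = 3.34e-07). At TP2, G8 ranged from 10.9 to 12.4 CPM in RF5 and from 11.4 to 12.7 CPM in RF4, so that the 2 RFs overlapped, and G8 was called in the interaction (FDR = 7.55e-05). It was the only alternate start so called.

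**Figure D4:**
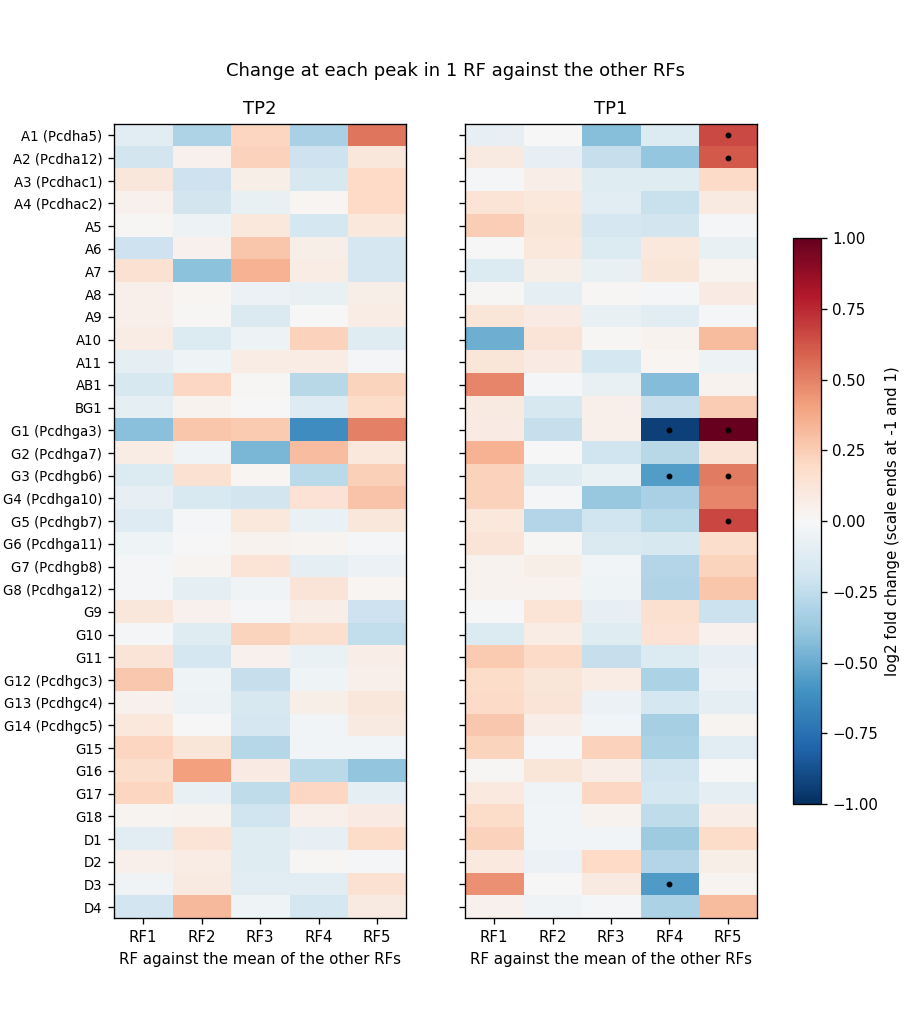
Log2 difference of each RF from the mean of the other RFs at the 35 cluster peaks in genome order, with TP2 left of TP1. At TP1 the RF4 column is below 0 at 29 of 35 peaks, and the RF5 column is above 0 at all 10 alternate starts.

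Taking the members by direction, RF4 lay below the mean of the other 4 at 19 of 35 peaks at TP2, with a median of −0.03, and at 29 of 35 at TP1, with a median of −0.23. Over all peaks the RF4 medians were 0.00 at TP2 and 0.01 at TP1, and in the flanking 1 Mb stretches 0.03 at TP2 and −0.02 at TP1. At TP1 the RF4 values were negative at all 10 alternate starts, all 5 C-type starts and all 6 peaks between and after the sets, but at only 3 of the 7 bodies of the alpha set. DARs were fewer: 3 peaks were lower in RF4 at TP1 (G1, G3 and D3, where 1.88% of all peaks were). The cluster median of RF4 at TP1 was −0.14 with loess scaling, −0.12 with unscaled library totals and −0.05 once the mean of each 1 Mb region was taken out. The medians over all peaks were 0.01, 0.12 and 0.01, in that order. Taking out the 1 Mb means left 22 of 35 peaks negative, among them 3 of 5 C-type starts. For most cell types, promoter peaks of marker genes also had negative RF4 medians at TP1. These were −0.56 for dentate granule cells (2 genes), −0.39 for oligodendrocytes, −0.36 for neurons, −0.35 for astrocytes and −0.07 for endothelium (1 gene). For microglia the median was 0.19 over 2 genes.

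RF1 was above the others at 30 of 35 peaks at TP1, with a median of 0.10. The RF1 median was 0.17 on chromosome 18, −0.03 in the flanking 1 Mb stretches and 0.00 over all peaks. At TP2, RF1 was above the others at 18 of 35, with a median of 0.01. Neither RF1, RF2 nor RF3 had a cluster DAR against the other 4 at TP1, where 21611 of 144458 peaks were called for RF1, 0.240% for RF2 and 1.99% for RF3. At TP2 no RF had one by the edgeR test, where the background was 2.36% for RF1, 0.172% for RF2, 3.58% for RF3, 1.86% for RF4 and 0.906% for RF5. There were 44 of 175 contrasts at an unadjusted p below 0.05, 7 below the FDR limit at any fold, and 2 DARs without the 3 libraries that stood apart, namely A7 lower in RF2 (−0.59 ± 0.135) and A1 higher in RF5 (0.62 ± 0.178), A1 being a peak listed only through RF5 at TP2.

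By pairs of RFs, 10 distinct cluster peaks were DARs at TP1. RF4 and RF5 differed at 6 (A2, G1, G3, G4, G5 and D4, all lower in RF4, background 2.70%), RF3 and RF5 at 4 (A1, A2, G1 and G4, all lower in RF3, background 1.94%), and RF2 and RF5 at 4 (A2, G1, G3 and G5, all lower in RF2, background 2.72%). RF1 and RF4 differed at 4 (AB1, G1, G3 and D3, all higher in RF1, background 11.4%), RF1 and RF5 at 2 (A10 and G1, both lower in RF1, background 9.52%), and RF3 and RF4 at 2 (G1 and D3, both higher in RF3, background 1.61%). RF1 and RF2 gave 0 (background 4.28%), as did RF1 and RF3 (20.1%), RF2 and RF3 (2.16%) and RF2 and RF4 (2.78%). Here the background is the share of all peaks called in the direction named, or in either direction where the cluster had 0. These comparisons share libraries, so the same RF5 or RF4 values enter several of them. A1 and G4 were listed only through RF5 at TP2, and G1 only through RF5 at TP1. The counts of pairs with RF5 that include them are therefore descriptions beside the backgrounds and not tests. RF1 against RF4 gave 11.4% of the 35 peaks, the same as the background, and RF1 against RF5 gave 5.71%, below it.

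At TP2 the single DAR was A7, inside the alpha gene bodies, between RF2 and RF3 (background 1.25%). It had 3.06, 2.69, 2.38, 2.48 and 4.25 CPM in RF2, against 5.26, 5.51, 4.12, 3.25 and 5.09 CPM in RF3. RF2 replicate 5, which stood apart from its group genome-wide, lay above RF3 replicates 3 and 4, while the other 4 RF2 libraries lay below every RF3 library. The log2 fold change was −0.61 ± 0.151 (FDR = 2.73e-03), and −0.77 ± 0.156 (FDR = 2.99e-05) without the 3 libraries. The call was lost without replicate 1 (FDR = 0.031), without replicate 2 (FDR = 0.076) and with libraries within sampling noise summed (FDR = 0.036). Peak calls at A7 had been made in 1 of 5 RF2 and 5 of 5 RF3 libraries. The other 9 pairs gave 0, with backgrounds of 1.43% for RF1 and RF2, 10.1% for RF1 and RF3, 0.305% for RF1 and RF4, 5.78% for RF1 and RF5, 0.957% for RF2 and RF4, 0.658% for RF2 and RF5, 11.1% for RF3 and RF4, 0.263% for RF3 and RF5, and 5.28% for RF4 and RF5. Over all pairs at TP2, 16 of 350 tests passed the FDR limit at any fold and 88 an unadjusted p below 0.05, against 89 and 161 at TP1. Without the 3 libraries, 6 peaks were DARs at TP2 (A1, A7, AB1, G1, G17 and D4), of which A1, lower in RF2 than in RF5, is again a description. AB1 was then lower in RF1 than in RF2 (−0.51 ± 0.060) and RF5 (−0.54 ± 0.056).

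The interaction of RF and time point was called at 15 of 35 cluster peaks, or 42.9%, where the background over all peaks was 54.4% and that of the flanks 43.5%. They were 4 of the 5 C-type starts (A3 missed it), 1 alternate start, 2 alpha and 3 gamma peaks without a start, and 5 of the 6 peaks between and after the sets. G15, inside the gamma set, had the smallest FDR after AB1 and D3 (4.17e-07). It had 15.2, 15.8, 15.5, 19.3 and 18.8 CPM in RF3 at TP2, against 22.1, 23.8, 27.4, 20.5 and 19.5 CPM in RF1, whereas at TP1 it had 21.9, 21.4, 23.9, 20.9 and 23.4 CPM in RF3, against 21.7, 22.6, 23, 21.4 and 22.1 CPM in RF1. RF3 was thus below RF1 with no overlap at TP2 and overlapped it at TP1. RF4 was lowest there, at 15.7 to 17.4 CPM.

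Other genes of the pathway also differed between RFs. All 12 non-clustered protocadherin genes listed had a promoter peak, and 5 at TP2 and 9 at TP1 had a promoter DAR between RFs, or 41.7% and 75%, where 24% and 46.6% of protein-coding genes with a promoter peak did. Their best promoter peaks were higher in RF1 than in RF4 at 11 of 12 genes at both time points, with a median of 0.14 at TP2 and 0.87 at TP1. That direction of RF1 over RF4 was not set against the promoter peaks of all genes. At TP1 the same contrast was also positive by median over markers of dentate granule cells (0.82), neurons (0.72), oligodendrocytes (0.48) and astrocytes (0.46). Over microglia the median was −0.11, from 2 genes of opposite sign (−0.49 and 0.27), and the 1 endothelial gene gave −0.48. Pcdh17 and Pcdh19 led at TP1. Against the other RFs, RF1 rose by 0.80 ± 0.052 at Pcdh17 and 0.78 ± 0.054 at Pcdh19, and RF4 fell by 0.74 ± 0.059 and 0.79 ± 0.061. Among 14 regulators of the cluster, 1 at TP2 (Wiz, a zinc finger partner of CTCF in looping) and 5 at TP1 had a promoter DAR, or 7.14% and 35.7%, both below the shares of all those genes. These 5 were Ctcf, which encodes the insulator protein, and the cohesin genes Rad21, Smc3, Stag1 and Stag2. RF4 over the other RFs had a median of −0.01 over the 14 at TP2 and −0.38 at TP1. Of 10 signalling partners, which include the kinases Ptk2 and Fyn, 2 at TP2 and 6 at TP1 had a promoter DAR, or 20% and 60%.

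The cell type markers moved with RF as well. Summed over the promoter peaks of the 7 neuron markers, the median of the libraries was 361 CPM in RF1 and 333 CPM in RF4 at TP2, and 398 CPM in RF1 and 299 CPM in RF4 at TP1. For the dentate granule markers Prox1 and C1ql2 the range was 49.9 to 66.7 CPM in RF1 and 41.3 to 45.5 CPM in RF4 at TP2, and 59.0 to 60.3 CPM in RF1 and 34.1 to 35.6 CPM in RF4 at TP1. For the glial and endothelial markers the range was 85.0 to 97.9 CPM in RF1 and 76.3 to 81.6 CPM in RF4 at TP2, and 87.5 to 99.5 CPM in RF1 and 78.3 to 82.4 CPM in RF4 at TP1. The medians of RF1 thus stood above those of RF4 in all 3 sums, and at TP1 RF1 also stood above RF4 at AB1, D3 and G14. Within the glial and endothelial list the members differed at TP1, the microglial promoter peaks summing to a median of 27.3 CPM in RF1 and 33.0 CPM in RF4, and the 1 endothelial gene giving −0.48 for RF1 over RF4. In RF5 at TP1 the neuron sum had a median of 361 CPM, the dentate granule sum 49.4 CPM and the glial and endothelial sum 80.5 CPM. The part that neuron types, residual glia or the quality of the libraries have in these differences was not tested.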

How the data were processed

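The authors aligned reads to GRCm38 with Bowtie2, kept unique alignments, marked duplicates with Picard 1.140, called broad peaks per library with MACS2 2.1.4, kept those found in 3 or more libraries of a group, merged them over groups and counted reads per merged peak. All tests here rest on these deposited raw counts, to which no scaling had been applied. Each deposited list of peaks gives a score, a fold enrichment, a −log10 p-value and a −log10 q-value as the authors' peak caller gave them. The fold enrichment and the −log10 q-value were used for calls only, and the score was not used. The deposited normalized counts equal the raw counts and were left out.

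Robust quasi-likelihood F-tests were run in edgeR 4.0.16 under R 4.3.3 after TMM scaling and filterByExpr, and were tested on simulated data. The terms were RF and replicate number, in 1 model per TP and 1 over both for the interaction. Adjusted p-values are Benjamini-Hochberg FDRs over all peaks tested, 144449 at TP2 and 144458 at TP1, and errors after ± are SEs from the model. CPM use TMM-scaled library totals. Per the study's methods, nuclei were sorted in 5 batches per TP with 1 sample of each RF in each. The replicate number was taken to stand for the batch, which no label states. Deviations from group means correlated between same-numbered libraries at 0.00220 on average at TP2 (1 of 50 pairs over 0.1) and 0.0521 at TP1 (12 of 50). The littermates of the 2 TPs could not be paired and were treated as independent.

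A pair of libraries was held to lie within sampling noise where its difference, over 16647 peaks with 500 to 5000 counts on average, had at most 1.02 times the variance of sampling, set at 2 times the binomial variance since both reads of a pair may have been counted. Alternatives were no replicate block, DESeq2 1.42.0 size factors and tests, no filter, loess offsets, 1 Mb region means taken out (limma 3.58.1), each replicate number left out, the 3 libraries left out and, chosen after seeing the data, libraries within sampling noise summed. The 3 libraries were picked from these same counts. Gene starts come from RefSeq on GRCm38.p6, matched by symbol. A promoter peak lies within 2 kb of a start, either end being used for the 3 protocadherin, 3 regulator and 5 signalling genes with no strand.

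Named peaks are those at the C-type starts, the 5 with the smallest RF p-value per set and TP, and the highest per set. G2 to G7 are outside this rule and were chosen after their values were seen. Members and lists were chosen with earlier results of these data known. The figures were drawn with matplotlib 3.10.9.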

Additional observations from a re-analysis of the deposited data

Results flagged for a closer look

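In groups of 5 libraries, 9 of 140 group values held a library far from the others (gap over range above 0.71), where chance gives about 1 in 20. In the summed alpha peaks this was RF3 replicate 1 at TP2, at 92.3 CPM where the next was 83.1 (0.780), and RF3 replicate 4 at TP1, at 69.7 CPM where the next was 73.1 (0.722). In the summed peaks between and after the sets it was RF4 replicate 5 at TP2, at 111 CPM against 116 to 117 in the others (0.724), and RF1 replicate 1 at TP1, at 127 CPM against 146 to 148 (0.918). That RF1 library was the lowest of its group at all 6 of the summed peaks (AB1, BG1 and D1 to D4).

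Single peaks gave 5 more. At TP2, G12 was low in RF1 replicate 3 (0.825), G8 was low in RF3 replicate 5, at 8.88 CPM (0.771), and D3 was high in RF4 replicate 3 (0.763). At TP1, D3 was high in RF3 replicate 4 (0.875) and G1 was low in RF2 replicate 1, at 0.592 CPM (0.793). RF1 replicate 3 is among the libraries that stood apart at TP2.

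RF effects differed between the time points, by the edgeR test of the interaction, at 15 peaks. FDRs were 5.76e-10 at AB1, 1.32e-09 at D3, 4.17e-07 at G15, 1.14e-05 at D1, 1.92e-05 at G18, 7.28e-05 at G17, 7.55e-05 at G8 (Pcdhga12), 1.05e-04 at D2, 1.35e-04 at G12 (Pcdhgc3), 6.16e-04 at G14 (Pcdhgc5), 7.00e-04 at D4, 7.38e-04 at G13 (Pcdhgc4), 1.55e-03 at A4 (Pcdhac2), 2.66e-03 at A7 and 5.93e-03 at A5. At these 15 peaks and the other 20, the sign of an RF's difference from the other 4 was the same at both time points at 25 peaks for RF4, 23 for RF5, 17 for RF1, 13 for RF3 and 10 for RF2.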

How the results depend on the processing

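At TP1, where 25 peaks depended on RF, the number called was 19 to 25 under the alternatives run. The TP1 background over all peaks was 44.9% to 61.2% in them. With 1 Mb means taken out, 22 cluster peaks were called, of which 18 were among the 25. At TP2 the 10 were 2 to 11 without 1 replicate number, 5 with loess offsets, 1 with 1 Mb means taken out, 16 without the 3 libraries that stood apart and 2 with libraries within sampling noise summed. DARs at TP1 (10) were 6 to 9 without 1 replicate number, lowest without replicate 2, and 8 with the summed libraries. The 1 DAR at TP2 became 0 to 2 without 1 replicate number, 0 without replicate 1 or 2 and with the summed libraries, and 6 without the 3 libraries. The 6 peaks called for 1 RF against the others at TP1 were 4 to 8 without 1 replicate number and 3 with 1 Mb means taken out, and the 0 at TP2 were 0 to 1 without 1 replicate number and 2 without the 3 libraries. The interaction (15) was 9 to 15 without 1 replicate number, lowest without replicate 2, 8 with the summed libraries and 19 without the 3 libraries. Its backgrounds were 40.8% to 53.9%, 45.2% and 61.1%, in that order. Taking out the replicate block left 25 peaks at TP1, 10 at TP2 and 15 in the interaction. Peaks called in every library (12) were 1 where a call had to cover 50% of the merged peak and 3 at a −log10 q-value of 5 or more. RF4 over the other RFs at TP1 moved on unscaled totals from −0.12 to −0.013 for the summed alpha peaks and from −0.25 to −0.14 for the summed gamma peaks, and the median of all peaks moved by 0.12 with it. Among the repeats of the named peaks' largest contrasts, 508 kept their direction and side of the limits, 13 fell short of a limit, 4 passed one and 0 changed sign. Depth was lowest at TP2, where the 2 shallowest libraries held 1967 and 2797 counts in the cluster, and its part in the counts of calls was not tested.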
